A study of Mus musculus with 8 samples.

Results

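The genes described are the enzymes and transporters of glycolysis and a set of hypoxia genes in mouse embryonic fibroblasts (MEFs) that have or lack caveolin-1 (Cav1), the coat protein of the plasma membrane pits called caveolae. Members were chosen by gene symbol: 35 symbols were named, 21 for glycolysis and 14 for hypoxia, and 34 of them were among the 12528 genes with a value. The aldolase gene Aldoc was the 1 named symbol without a value, and all 34 others passed the filter on low values. Immortalized MEFs of WT and Cav1KO littermates were seeded at low confluence on fibronectin-coated polyacrylamide hydrogels, either stiff or soft, and poly(A) RNA was sequenced after 24 h. Both genotypes were grown on both substrates, with 2 libraries for each of the 4 groups, which are called WT stiff, Cav1KO stiff, WT soft and Cav1KO soft. The labels name no other treatment. The sources used here do not say how many immortalized lines stood for each genotype, so a difference between genotypes and a difference between lines cannot be told apart. They also do not say whether the libraries of a group came from separate cultures, so p-values measure the spread between these libraries, which may be technical.

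Glycolysis splits glucose into pyruvate in the cytosol. A transporter lets glucose in, hexokinase traps it, phosphofructokinase commits it to the pathway, the lower steps recover ATP, and lactate dehydrogenase can turn pyruvate into lactate, which leaves the cell through monocarboxylate transporters. Hypoxia-inducible factor (HIF) is a transcription factor whose alpha subunit is hydroxylated by the oxygen-dependent EGLN enzymes and then destroyed. When oxygen falls, the subunit persists and drives many of the glycolytic genes together with genes for blood supply, mitochondrial turnover and redox balance. Fibroblasts in culture are known for a high rate of glycolysis even with oxygen present.

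The 8 libraries held 17089836 to 19944952 reads. Values are CPM, which are read counts scaled to the size of the library, and here also by the trimmed mean of M values (TMM). Fold changes are log2 differences of CPM + 1, given ± SE from limma, with Benjamini-Hochberg adjusted p over the 12494 genes tested, and a gene is called at an adjusted p under 0.05. Cav1 itself ranged over 949.8 to 1157 CPM in WT and reached at most 0.411 CPM in the Cav1KO libraries, so every library went with its genotype label. It was not called for stiffness in either genotype, so it does not check the substrate labels. Of 12 fibroblast markers 9 had values (not Thy1, Lum and Fap), and their summed level was 9255 to 9428 CPM (WT) and 4499.9 to 5610.4 CPM (Cav1KO) on stiff substrate, and 12046 to 12196 CPM (WT) and 13525 to 13575 CPM (Cav1KO) on soft substrate. Of the 7 macrophage markers only Cd68 and Cd14 had values, at a sum of 24.9 to 40.4 CPM in WT and 92.8 to 104 in Cav1KO libraries, and none of the 18 epithelial, endothelial and muscle markers had one. The part of these differences in the results below was not tested.

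Of 20 glycolysis genes, 15 were lower in Cav1KO than in WT cells on each substrate, where 26.6% of all genes were lower on stiff and 29.9% on soft. The 3 called higher on both were Ldhb, Pfkfb3 and Pfkm (all genes 25% on stiff and 24.1% on soft), and the call of Pfkm on stiff substrate was kept in 3 of 17 alternative settings. The 20 genes together took 1.78 to 1.92% of the signal in the 4 WT libraries, 1.34 to 1.42% in Cav1KO stiff and 1.14 to 1.18% in Cav1KO soft. WT values on the stiff and the soft substrate overlapped, whereas the Cav1KO soft values lay below the Cav1KO stiff values and both lay below every WT value. The lactate exporter gene Slc16a3 was close to absent from Cav1KO cells, and Ldhb was more than 10 times higher there. In bulk RNA, fewer cells expressing a gene and less RNA per cell cannot be told apart.

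**Figure D1:**
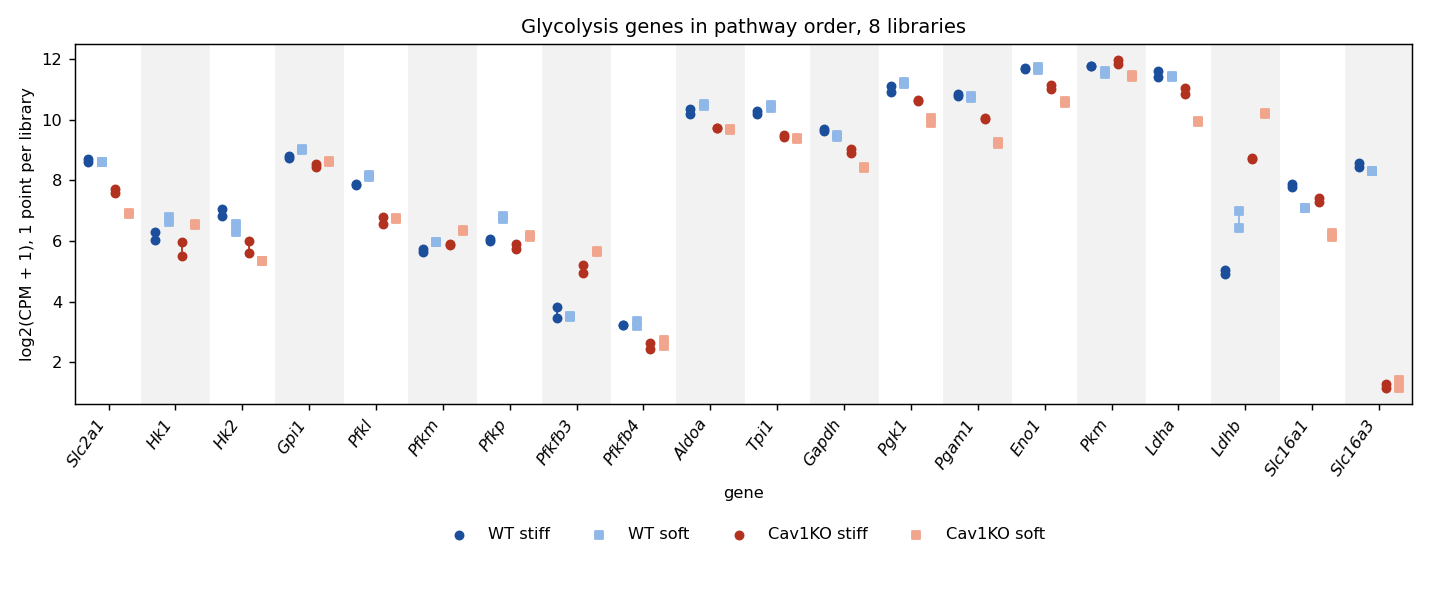
Level of each glycolysis gene in each library as log2(CPM + 1), with genes in pathway order on the x axis, circles for stiff and squares for soft substrate, blue for WT and red for Cav1KO, and a line joining the 2 libraries of a group. Slc16a3 falls from above 8 in the WT libraries to below 2 in the Cav1KO libraries, and Ldhb runs the other way.

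Uptake and trapping of glucose came first. Slc2a1 was at 386 and 419.8 CPM on stiff and 389 and 385 CPM on soft substrate in WT cells, and was at 191 and 209 CPM on stiff and 117 and 119.8 CPM on soft substrate in Cav1KO cells. Slc2a1 encodes GLUT1, the main glucose transporter of fibroblasts. The WT libraries lay within 385 to 419.8 CPM on either substrate, and the Cav1KO soft libraries were the lowest of all, with no overlap between Cav1KO groups. Slc2a1 was 1.69 times higher on stiff than on soft substrate in Cav1KO cells (log2 fold change 0.75 ± 0.07, adjusted p = 7.63e-05) and did not pass the test in WT cells (0.06 ± 0.07, adjusted p = 0.547, 95% interval -0.11 to 0.23). The difference between these 2 stiffness effects, WT minus Cav1KO, was -0.69 ± 0.11, adjusted p = 0.0112. Slc2a1 was lower in Cav1KO than in WT cells on stiff (-1.005 ± 0.07, adjusted p = 1.08e-05) and on soft substrate (-1.70 ± 0.07, adjusted p = 4.50e-07).

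The hexokinase genes Hk1 and Hk2, whose products phosphorylate glucose, moved in opposite directions with stiffness. Hk2 was at 131 and 111 CPM on stiff and 78.5 and 93.1 CPM on soft substrate in WT cells, and was at 62.97 and 47.8 CPM on stiff and 39.2 and 39.9 CPM on soft substrate in Cav1KO cells. Hk1 was at 78.6 and 64.2 CPM on stiff and 98.4 and 111 CPM on soft substrate in WT cells, and was at 62.1 and 44.99 CPM on stiff and 92.95 and 92.3 CPM on soft substrate in Cav1KO cells. Hk2, the form known for its response to growth signals and hypoxia, was higher on stiff substrate in WT (0.50 ± 0.14, adjusted p = 0.0196) and in Cav1KO cells (0.46 ± 0.14, adjusted p = 0.0225), and Hk1, the form common to most tissues, was lower in both (-0.55 ± 0.15, adjusted p = 0.0169 and -0.80 ± 0.15, adjusted p = 0.00233). Of hexokinase CPM per kb of transcript, Hk2 made up 54.3% (WT) and 42.02% (Cav1KO) on stiff substrate, and 36.4% (WT) and 22.97% (Cav1KO) on soft substrate. With the length of all annotated exons in place of the principal transcript, these shares were 70.9% (WT) and 59.7% (Cav1KO) on stiff substrate, and 53.9% (WT) and 37.9% (Cav1KO) on soft substrate. Which of the 2 genes had the larger RNA share thus depended on the length in WT soft and Cav1KO stiff cells, while the order of the groups did not. Between genotypes, Hk2 was lower in Cav1KO cells on stiff (-1.13 ± 0.14, adjusted p = 0.000259) and soft substrate (-1.09 ± 0.14, adjusted p = 0.000276). Hk1 was called lower on stiff (-0.42 ± 0.15, adjusted p = 0.0467) and not on soft (-0.17 ± 0.15, adjusted p = 0.367). The stiffness call of Hk1 in WT cells was lost without WT stiff replicate 2 or WT soft replicate 2 (log2 fold change -0.46 to -0.41), and the adjusted p ranged from 0.00138 to 0.106 over the 17 alternatives, 15 of which kept the call. That of Hk2 in WT cells was lost without WT stiff replicate 1 or WT soft replicate 1 (log2 fold change 0.38), and the adjusted p ranged from 0.00277 to 0.143 over the 17 alternatives, 15 of which kept the call. In Cav1KO cells, the call of Hk2 was lost without Cav1KO stiff replicate 1, Cav1KO soft replicate 1 or Cav1KO soft replicate 2 (log2 fold change 0.27 to 0.47), and the adjusted p ranged from 0.00408 to 0.118 over the 17 alternatives, 14 of which kept the call. The genotype call of Hk1 on stiff substrate was lost without WT stiff replicate 1, WT soft replicate 1, WT soft replicate 2, Cav1KO stiff replicate 2, Cav1KO soft replicate 1 or Cav1KO soft replicate 2 (log2 fold change -0.42 to -0.19), and the adjusted p ranged from 0.00367 to 0.271 over the 17 alternatives, 7 of which kept the call.

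Gpi1 encodes glucose-6-phosphate isomerase, the next enzyme. Gpi1 was at 427 and 445 CPM on stiff and 528 and 514 CPM on soft substrate in WT cells, and was at 370.4 and 349 CPM on stiff and 396 and 389 CPM on soft substrate in Cav1KO cells. It was lower on stiff substrate in WT cells (-0.26 ± 0.07, adjusted p = 0.0132), a call lost without WT stiff replicate 1 or WT soft replicate 1 (log2 fold change -0.24 to -0.23), and the adjusted p ranged from 0.00321 to 0.0717 over the 17 alternatives, 15 of which kept the call. Its stiffness effect in Cav1KO cells was -0.13 ± 0.07, adjusted p = 0.143. Gpi1 was lower in Cav1KO cells on stiff (-0.28 ± 0.07, adjusted p = 0.00842) and soft substrate (-0.41 ± 0.07, adjusted p = 0.00105), with every Cav1KO library below every WT library.

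Phosphofructokinase catalyses the committed step. Its liver-type gene Pfkl was the most reduced of the 3 subunits in Cav1KO cells. Pfkl was at 231 and 232 CPM on stiff and 287 and 277 CPM on soft substrate in WT cells, and was at 111 and 93.1 CPM on stiff and 106 and 106 CPM on soft substrate in Cav1KO cells. Both WT groups lay at more than 2 times the Cav1KO values, and the genotype effect was -1.18 ± 0.09, adjusted p = 1.01e-05 on stiff and -1.40 ± 0.09, adjusted p = 3.51e-06 on soft substrate. Pfkm was at 52.2 and 49.4 CPM on stiff and 61.6 and 61.9 CPM on soft substrate in WT cells, and was at 58.8 and 57.6 CPM on stiff and 79.5 and 80.7 CPM on soft substrate in Cav1KO cells. Pfkp was at 63.8 and 65.8 CPM on stiff and 105 and 112 CPM on soft substrate in WT cells, and was at 58.8 and 52.4 CPM on stiff and 72.2 and 68.4 CPM on soft substrate in Cav1KO cells. The muscle-type gene Pfkm was higher in Cav1KO cells on soft substrate (0.37 ± 0.07, adjusted p = 0.00256), and the platelet-type gene Pfkp was lower there (-0.62 ± 0.08, adjusted p = 0.00036). Of phosphofructokinase CPM per kb, Pfkl accounted for 65.1% (WT) and 44.7% (Cav1KO) on stiff substrate, and 61.3% (WT) and 38.8% (Cav1KO) on soft substrate. With the length of all exons Pfkm, not Pfkl, had the largest RNA share in Cav1KO cells, at 47.4% on stiff and 53.2% on soft substrate. On stiff relative to soft substrate, Pfkm was lower in WT (-0.28 ± 0.07, adjusted p = 0.0127) and Cav1KO cells (-0.45 ± 0.07, adjusted p = 0.000855), and so was Pfkp (-0.73 ± 0.08, adjusted p = 0.000249 and -0.34 ± 0.08, adjusted p = 0.00884). Pfkl was called lower in WT cells (-0.28 ± 0.09, adjusted p = 0.0261) and not in Cav1KO cells (-0.06 ± 0.09, adjusted p = 0.574), but the difference between these effects did not pass the test (-0.22 ± 0.12, adjusted p = 0.23).

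Several of these calls lay near the threshold. The WT call of Pfkl was lost without WT stiff replicate 1, WT stiff replicate 2, WT soft replicate 1, WT soft replicate 2, Cav1KO soft replicate 1 or Cav1KO soft replicate 2 (log2 fold change -0.31 to -0.26), and the adjusted p ranged from 0.0063 to 0.125 over the 17 alternatives, 10 of which kept the call. The WT call of Pfkm was lost without WT stiff replicate 2 or WT soft replicate 1 (log2 fold change -0.28 to -0.24), and the adjusted p ranged from 0.00771 to 0.0696 over the 17 alternatives, 14 of which kept the call. The Cav1KO call of Pfkp was lost without Cav1KO stiff replicate 2 or Cav1KO soft replicate 1 (log2 fold change -0.30 to -0.25), and the adjusted p ranged from 0.00318 to 0.0743 over the 17 alternatives, 15 of which kept the call. Pfkm was also called higher in Cav1KO cells on stiff substrate (0.19 ± 0.07, adjusted p = 0.05 after rounding), and this call was lost when any 1 of the 8 libraries was left out (log2 fold change 0.16 to 0.23, adjusted p from 0.0221 to 0.194 over the 17 alternatives).

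The PFKFB enzymes make and remove fructose 2,6-bisphosphate, the strongest allosteric activator of phosphofructokinase. Of their genes, Pfkfb3 and Pfkfb4 are members, and these went apart between genotypes. Pfkfb3 was at 13.1 and 10.1 CPM on stiff and 10.2 and 10.6 CPM on soft substrate in WT cells, and was at 36.2 and 29.7 CPM on stiff and 49.3 and 49.5 CPM on soft substrate in Cav1KO cells. Pfkfb4 was at 8.49 and 8.38 CPM on stiff and 9.304 and 8.28 CPM on soft substrate in WT cells, and was at 5.296 and 4.49 CPM on stiff and 5.65 and 4.78 CPM on soft substrate in Cav1KO cells. Every Cav1KO value of Pfkfb3 exceeded every WT value, by 1.43 ± 0.14 on the log2 scale on stiff (adjusted p = 5.64e-05) and by 2.14 ± 0.14 on soft substrate (adjusted p = 4.99e-06). Pfkfb4 was lower in Cav1KO cells on stiff (-0.68 ± 0.14, adjusted p = 0.00395) and soft substrate (-0.66 ± 0.14, adjusted p = 0.00445). Pfkfb3 was lower on stiff than on soft substrate in Cav1KO cells (-0.58 ± 0.14, adjusted p = 0.0076), its effect in WT cells was 0.13 ± 0.14, adjusted p = 0.464, and the difference between the effects did not pass the test (0.71 ± 0.20, adjusted p = 0.0534). Of the summed CPM per kb of Pfkfb3 and Pfkfb4, Pfkfb3 made up 50.7% (WT) and 83.5% (Cav1KO) on stiff substrate, and 47.2% (WT) and 87.7% (Cav1KO) on soft substrate. Pfkfb1 and Pfkfb2 also had values and were left out of this sum, so these are shares of the pair and not of the family. With the length of all exons it made up 46.8% (WT) and 81.2% (Cav1KO) on stiff substrate, and 43.4% (WT) and 85.9% (Cav1KO) on soft substrate. Which of the pair was the more abundant in WT stiff cells thus depended on the length.

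The lower part of the pathway runs from aldolase to pyruvate kinase. Aldoa (aldolase) was at 1178 and 1305 CPM (WT) and 849 and 855 CPM (Cav1KO) on stiff substrate, and 1458 and 1395 CPM (WT) and 806 and 836 CPM (Cav1KO) on soft substrate. Tpi1, for triosephosphate isomerase, was at 1153 and 1236 CPM (WT) and 713 and 687 CPM (Cav1KO) on stiff substrate, and 1339 and 1441 CPM (WT) and 660.0 and 679.7 CPM (Cav1KO) on soft substrate. Neither gene passed the stiffness test in Cav1KO cells (0.05 ± 0.08, adjusted p = 0.593 for Aldoa and 0.06 ± 0.08, adjusted p = 0.513 for Tpi1), and both were lower in Cav1KO than in WT cells on stiff (-0.54 ± 0.08, adjusted p = 0.000576 and -0.77 ± 0.08, adjusted p = 6.49e-05) and on soft substrate (-0.80 ± 0.08, adjusted p = 5.71e-05 and -1.05 ± 0.08, adjusted p = 1.01e-05). Tpi1 was called lower on stiff substrate in WT cells (-0.22 ± 0.08, adjusted p = 0.0441), and Aldoa had -0.20 ± 0.08, adjusted p = 0.0629. The Tpi1 call was lost without WT stiff replicate 1, WT stiff replicate 2, WT soft replicate 1, WT soft replicate 2, Cav1KO soft replicate 1 or Cav1KO soft replicate 2 (log2 fold change -0.27 to -0.17), and the adjusted p ranged from 0.0424 to 0.198 over the 17 alternatives, 8 of which kept the call.

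The 5 consecutive genes for the steps from glyceraldehyde-3-phosphate to pyruvate were higher on stiff than on soft substrate in Cav1KO cells. Gapdh, the glyceraldehyde-3-phosphate dehydrogenase gene, was at 795 and 831 CPM (WT) and 529 and 481 CPM (Cav1KO) on stiff substrate, and 684 and 725 CPM (WT) and 340.5 and 348 CPM (Cav1KO) on soft substrate (stiffness effect 0.55 ± 0.08, adjusted p = 0.000401 in Cav1KO cells). Pgk1, for the first ATP-making kinase, was at 1915 and 2189.5 CPM (WT) and 1577 and 1618 CPM (Cav1KO) on stiff substrate, and 2309 and 2439 CPM (WT) and 959 and 1069 CPM (Cav1KO) on soft substrate (stiffness effect 0.66 ± 0.10, adjusted p = 0.000586 in Cav1KO cells). Pgam1 (phosphoglycerate mutase) was at 1754 and 1857 CPM (WT) and 1032 and 1052 CPM (Cav1KO) on stiff substrate, and 1672 and 1742 CPM (WT) and 589 and 612 CPM (Cav1KO) on soft substrate (stiffness effect 0.79 ± 0.07, adjusted p = 5.83e-05 in Cav1KO cells). In all 3, and in Eno1 and Pkm as well, the Cav1KO soft libraries were the lowest and the 2 Cav1KO groups did not overlap. How many of all genes lay apart in this way was not counted. Eno1 (enolase) was at 3281 and 3361 CPM (WT) and 2284 and 2080.4 CPM (Cav1KO) on stiff substrate, and 3180.2 and 3398 CPM (WT) and 1489.7 and 1556 CPM (Cav1KO) on soft substrate (stiffness effect 0.52 ± 0.09, adjusted p = 0.00136 in Cav1KO cells). Pkm (pyruvate kinase) was at 3529 and 3457 CPM (WT) and 3972 and 3659 CPM (Cav1KO) on stiff substrate, and 2910.4 and 3088 CPM (WT) and 2704 and 2814 CPM (Cav1KO) on soft substrate (stiffness effect 0.47 ± 0.09, adjusted p = 0.00262 in Cav1KO cells). Pkm was the 1 gene of the 5 whose genotypes did not differ past the test on stiff (0.13 ± 0.09, adjusted p = 0.278, interval -0.08 to 0.34) or on soft substrate (-0.12 ± 0.09, adjusted p = 0.296, interval -0.33 to 0.09). Gene-level values cannot separate its M1 and M2 splice forms.

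The other 4 were lower in Cav1KO cells on both substrates, and the drop was larger on soft in each. On soft substrate it was -1.03 ± 0.08 for Gapdh, -1.23 ± 0.10 for Pgk1, -1.51 ± 0.07 for Pgam1 and -1.11 ± 0.09 for Eno1, with adjusted p of 1.75e-05 or less. On stiff substrate it was -0.69 ± 0.08, -0.36 ± 0.10, -0.79 ± 0.07 and -0.61 ± 0.09, with adjusted p of 0.0139 or less. The Pgk1 call on stiff substrate was lost without WT stiff replicate 2 (log2 fold change -0.26), and the adjusted p ranged from 0.00206 to 0.0839 over the 17 alternatives, 16 of which kept the call. The test of the difference between the drops is the same as that of the difference between the stiffness effects, and it was passed by Pgk1 (-0.87 ± 0.14, adjusted p = 0.0126), Pgam1 (-0.71 ± 0.10, adjusted p = 0.00979) and Eno1 (-0.50 ± 0.13, adjusted p = 0.044) and not by Gapdh (-0.34 ± 0.11, adjusted p = 0.0686). The call of Pgk1 was kept in 14 of 17 alternatives, that of Pgam1 in 15 of 17 and that of Eno1 in 8 of 17. Gapdh was also called higher on stiff substrate in WT cells (0.21 ± 0.08, adjusted p = 0.0499), a call lost without WT stiff replicate 1, WT stiff replicate 2, WT soft replicate 1, WT soft replicate 2, Cav1KO soft replicate 1 or Cav1KO soft replicate 2 (log2 fold change 0.17 to 0.25), and the adjusted p ranged from 0.03 to 0.215 over the 17 alternatives, 6 of which kept the call. With quantile normalization the Cav1KO stiffness calls of Eno1 and Pkm were lost.

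Lactate dehydrogenase, a tetramer of LDHA and LDHB subunits, was a step at which the RNA shares of the subunit genes differed widely between the groups. The subunits themselves were not measured in these data. Ldha was at 2724 and 3117 CPM on stiff and 2698 and 2794 CPM on soft substrate in WT cells, and was at 1850.1 and 2107 CPM on stiff and 973 and 1002 CPM on soft substrate in Cav1KO cells. Ldhb was at 28.9 and 31.8 CPM on stiff and 125 and 86.03 CPM on soft substrate in WT cells, and was at 422 and 417 CPM on stiff and 1163 and 1194 CPM on soft substrate in Cav1KO cells. Ldhb was the lowest in WT stiff and the highest in Cav1KO soft libraries, and no 2 groups overlapped for it. Ldha, known as a HIF target and the form associated with lactate production, was lowest in Cav1KO soft libraries. Ldhb was higher in Cav1KO than in WT cells by 13.8 times on stiff (3.75 ± 0.15, adjusted p = 2.73e-07) and 11.2 times on soft substrate (3.49 ± 0.15, adjusted p = 3.78e-07). Ldha was lower in Cav1KO cells on stiff (-0.56 ± 0.10, adjusted p = 0.00183) and soft substrate (-1.47 ± 0.10, adjusted p = 6.62e-06).

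On stiff relative to soft substrate, Ldhb was lower in both WT (-1.74 ± 0.15, adjusted p = 7.57e-05) and Cav1KO cells (-1.49 ± 0.15, adjusted p = 7.71e-05), and the effects did not differ past the test (-0.26 ± 0.21, adjusted p = 0.401, interval -0.73 to 0.22). Ldha was 2.003 times higher on stiff substrate in Cav1KO cells (0.999 ± 0.10, adjusted p = 8.38e-05), with 0.09 ± 0.10, adjusted p = 0.513 in WT cells and a difference between the effects of -0.91 ± 0.14, adjusted p = 0.0125. Of lactate dehydrogenase CPM per kb of transcript, Ldhb made up 1.42 and 1.36% (WT) and 23.6 and 21.2% (Cav1KO) on stiff substrate, and 5.92 and 4.003% (WT) and 61.8 and 61.7% (Cav1KO) on soft substrate, for the 2 libraries of each group. Ldhb had the smaller RNA share of the pair in 6 libraries and the larger one in the 2 Cav1KO soft libraries. The summed CPM per kb of both genes differed far less, with group means of 1677 (WT) and 1442 (Cav1KO) on stiff substrate, and 1636 (WT) and 1463 (Cav1KO) on soft substrate. With the length of all exons the mean Ldhb share was 2.14% (WT) and 30.98% (Cav1KO) on stiff substrate, and 7.51% (WT) and 71.6% (Cav1KO) on soft substrate. With that length the summed CPM per kb was 902 (WT) and 865 (Cav1KO) on stiff substrate, and 897 (WT) and 1049 (Cav1KO) on soft substrate. Which genotype had the higher sum on soft substrate thus depended on the length.

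Lactate leaves or enters cells through the monocarboxylate transporters MCT1, encoded by Slc16a1, and MCT4, encoded by the hypoxia-responsive gene Slc16a3. Slc16a3 was at 350.1 and 381 CPM on stiff and 313 and 319.8 CPM on soft substrate in WT cells, and was at 1.24 and 1.42 CPM on stiff and 1.67 and 1.23 CPM on soft substrate in Cav1KO cells. The 4 WT libraries held 5177 to 6972 reads of it and the 4 Cav1KO libraries 21 to 32, so the gene was detected in Cav1KO cells but at a trace. Mean CPM was 275 times higher in WT cells on stiff and 218 times higher on soft substrate, and on the log2(CPM + 1) scale, which understates such ratios, the genotype effect was -7.30 ± 0.11, adjusted p = 2.28e-09 on stiff and -7.02 ± 0.11, adjusted p = 2.51e-09 on soft. Stiffness gave no call for Slc16a3 in WT (0.21 ± 0.11, adjusted p = 0.162, interval -0.05 to 0.47) or Cav1KO cells (-0.07 ± 0.11, adjusted p = 0.632, interval -0.33 to 0.19).

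Slc16a1 was at 218 and 234 CPM on stiff and 134 and 134 CPM on soft substrate in WT cells, and was at 156 and 172 CPM on stiff and 69.6 and 75.9 CPM on soft substrate in Cav1KO cells. In contrast to Slc16a3, it was higher on stiff substrate in WT (0.75 ± 0.08, adjusted p = 0.000186) and Cav1KO cells (1.16 ± 0.08, adjusted p = 1.94e-05), with no overlap between the substrates in either genotype, and the effects did not differ past the test (-0.41 ± 0.11, adjusted p = 0.0518). It was lower in Cav1KO cells on stiff (-0.46 ± 0.08, adjusted p = 0.00156) and soft substrate (-0.87 ± 0.08, adjusted p = 3.67e-05). Of the summed CPM per kb of the pair, Slc16a1 thus made up 37.7% (WT) and 99.2% (Cav1KO) on stiff substrate, and 29.3% (WT) and 97.99% (Cav1KO) on soft substrate. That sum was 135 (WT) and 37.3 (Cav1KO) on stiff substrate, and 103 (WT) and 16.8 (Cav1KO) on soft substrate.

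**Figure D2:**
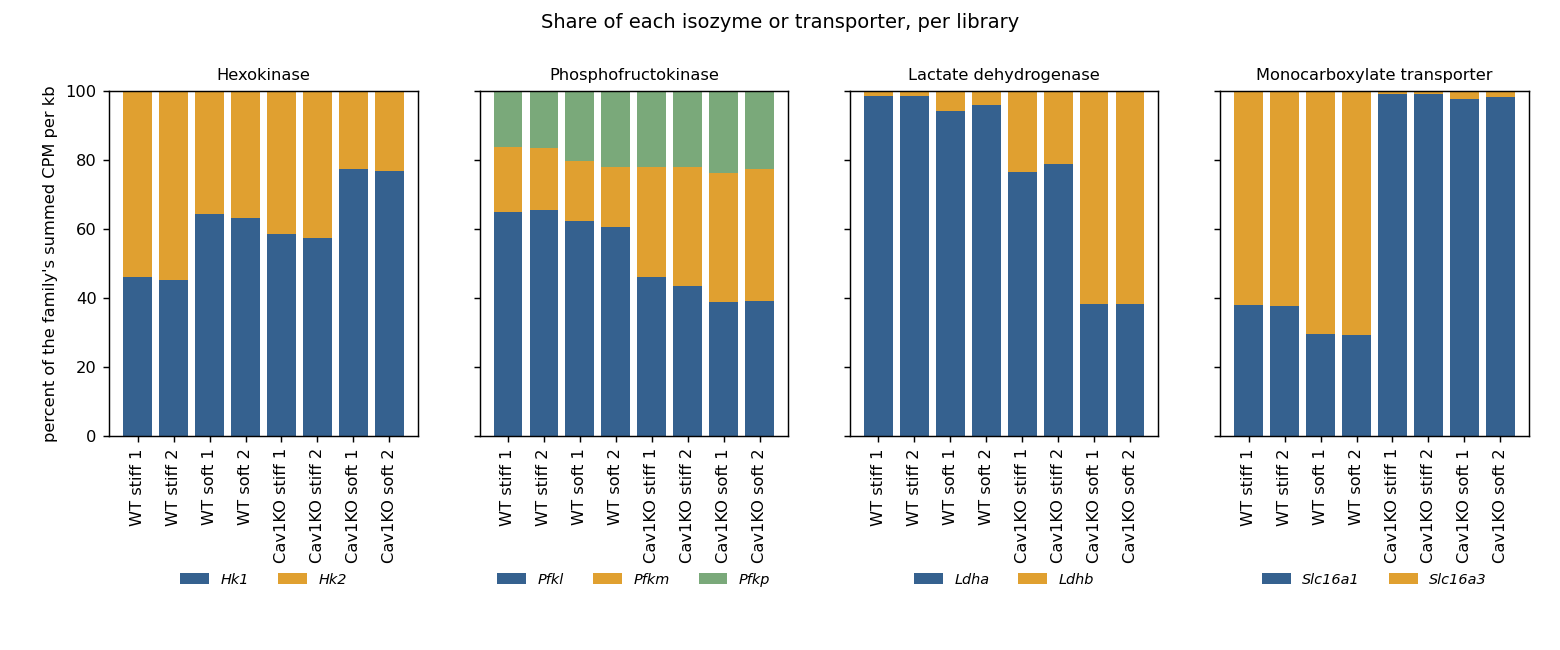
Share of each gene in the summed CPM per kb of principal transcript for 4 steps of the pathway, with 1 bar per library on the x axis and percent on the y axis. The Ldhb share rises from 1.36 to 1.42% in the WT stiff libraries to 61.7 to 61.8% in the Cav1KO soft libraries, and Slc16a3 takes over 62% of the pair in every WT library and under 2.4% in every Cav1KO library.

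The upstream sequences of the lactate dehydrogenase and lactate transporter genes and of the hypoxia gene Bnip3 are shown because these genes differed between the groups and the hypoxia response is known to act through promoter elements whose core is ACGTG or GCGTG. The 250 bases before a RefSeq transcript start of each gene were taken (GRCm38.p6), 5′ to 3′ on the gene's strand, and capitals mark a core on either strand. A core on the opposite strand reads CACGT or CACGC, and a CACGTG holds 2 overlapping cores, 1 on each strand. The first RefSeq start of Ldha is shown. The windows of Ldha and Slc16a3 lie inside the gene spans given next, which begin further upstream. In the GENCODE M21 annotation of GRCm38, Slc16a3 spans chr11:120948480-120960868, plus strand, Slc16a1 chr3:104638668-104658462, plus strand, Ldha chr7:46841475-46855627, plus strand, Ldhb chr6:142490249-142507957, minus strand and Bnip3 chr7:138890836-138909519, minus strand.
Ldha (chr7:46845554-46845803, plus strand): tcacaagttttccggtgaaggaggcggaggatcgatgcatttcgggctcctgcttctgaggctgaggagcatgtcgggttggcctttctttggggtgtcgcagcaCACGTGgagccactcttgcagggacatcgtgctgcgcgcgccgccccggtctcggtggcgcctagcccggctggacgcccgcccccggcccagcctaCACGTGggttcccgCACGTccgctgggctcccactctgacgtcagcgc
Ldhb (chr6:142507958-142508207, minus strand): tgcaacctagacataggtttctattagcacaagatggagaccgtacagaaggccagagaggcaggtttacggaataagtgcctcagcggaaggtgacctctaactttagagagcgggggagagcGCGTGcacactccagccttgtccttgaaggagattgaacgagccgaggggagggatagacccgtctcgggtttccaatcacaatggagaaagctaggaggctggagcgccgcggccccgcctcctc
Slc16a3 (chr11:120948817-120949066, plus strand): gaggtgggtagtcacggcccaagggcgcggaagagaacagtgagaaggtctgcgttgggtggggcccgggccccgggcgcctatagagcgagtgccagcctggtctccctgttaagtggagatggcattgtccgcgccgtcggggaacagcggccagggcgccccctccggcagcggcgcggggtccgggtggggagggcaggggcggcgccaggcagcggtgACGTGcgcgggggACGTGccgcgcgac
Slc16a1 (chr3:104638414-104638663, plus strand): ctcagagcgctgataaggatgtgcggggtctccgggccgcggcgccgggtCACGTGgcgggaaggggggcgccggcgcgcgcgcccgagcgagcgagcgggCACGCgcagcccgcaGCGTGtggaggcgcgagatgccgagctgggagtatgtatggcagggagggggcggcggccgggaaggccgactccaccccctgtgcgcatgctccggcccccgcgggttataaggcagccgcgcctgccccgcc
Bnip3 (chr7:138909507-138909756, minus strand): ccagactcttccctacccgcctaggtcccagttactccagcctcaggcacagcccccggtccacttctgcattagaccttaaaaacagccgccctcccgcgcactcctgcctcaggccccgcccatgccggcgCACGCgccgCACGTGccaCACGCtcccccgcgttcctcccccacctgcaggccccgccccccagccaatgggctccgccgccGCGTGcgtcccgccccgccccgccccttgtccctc
The windows of Ldha and Bnip3 held 5 cores each, that of Slc16a1 4, that of Slc16a3 2 and that of Ldhb 1. Over the whole set, 34 of 35 members had a RefSeq promoter (not Ndrg1, and Ero1l under its current symbol Ero1a), and 32 of these (94.1%) held at least 1 core within 250 bases before a start. The same was true of 41.5% of all 27025 genes with a RefSeq promoter and of 62.5% of the 9071 of them matched by symbol to a gene with a value here. A gene counted if any of its starts had a core, among the members and over all genes alike. The members were named in part as hypoxia genes, so these shares do not test a link to the hypoxia response. A match of 5 letters is a description of the sequence and does not mark a bound site.

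Counted by comparison, the glycolysis genes gave the following. On stiff relative to soft substrate in WT cells, 3 of the 20 were higher (Hk2, Gapdh and Slc16a1) and 7 lower (Hk1, Gpi1, Pfkl, Pfkm, Pfkp, Tpi1 and Ldhb), where 22.1% of all genes tested were higher and 26.3% lower. The median log2 fold change of the 20 was -0.02, against -0.02 over all genes. Of these 10 calls, 3 held without each of the 8 libraries in turn (Pfkp, Ldhb and Slc16a1). The counts were 1 higher and 4 lower without WT stiff replicate 1, 1 and 3 without WT soft replicate 1, and 2 and 4 without WT stiff replicate 2 or WT soft replicate 2. In Cav1KO cells, 9 were higher (Slc2a1, Hk2, Gapdh, Pgk1, Pgam1, Eno1, Pkm, Ldha and Slc16a1) and 5 lower (Hk1, Pfkm, Pfkp, Pfkfb3 and Ldhb), where 27.9% of all genes were higher and 28.2% lower, and the median was 0.06 against -0.02. Of these 14 calls, 12 held without each library in turn, the exceptions being Hk2 and Pfkp.

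The stiffness effects of the 2 genotypes differed past the test for 5 of the 20, Slc2a1, Pgk1, Pgam1, Eno1 and Ldha, all with the more positive effect in Cav1KO cells, and for 0 in the other direction, where 6% of all genes had a lower and 4.47% a higher effect in WT cells. In that other direction limma gave 1 gene at an unadjusted p under 0.05, and DESeq2 called 1 and edgeR 0. None of the 5 calls held without each library in turn, and over all 17 alternatives Slc2a1 was kept in 14 of 17 and Ldha in 14 of 17. Their number was 0 without Cav1KO soft replicate 1 or 2 and 1 without WT stiff replicate 1, while the sign of each of the 5 was kept without every library.

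**Figure D3:**
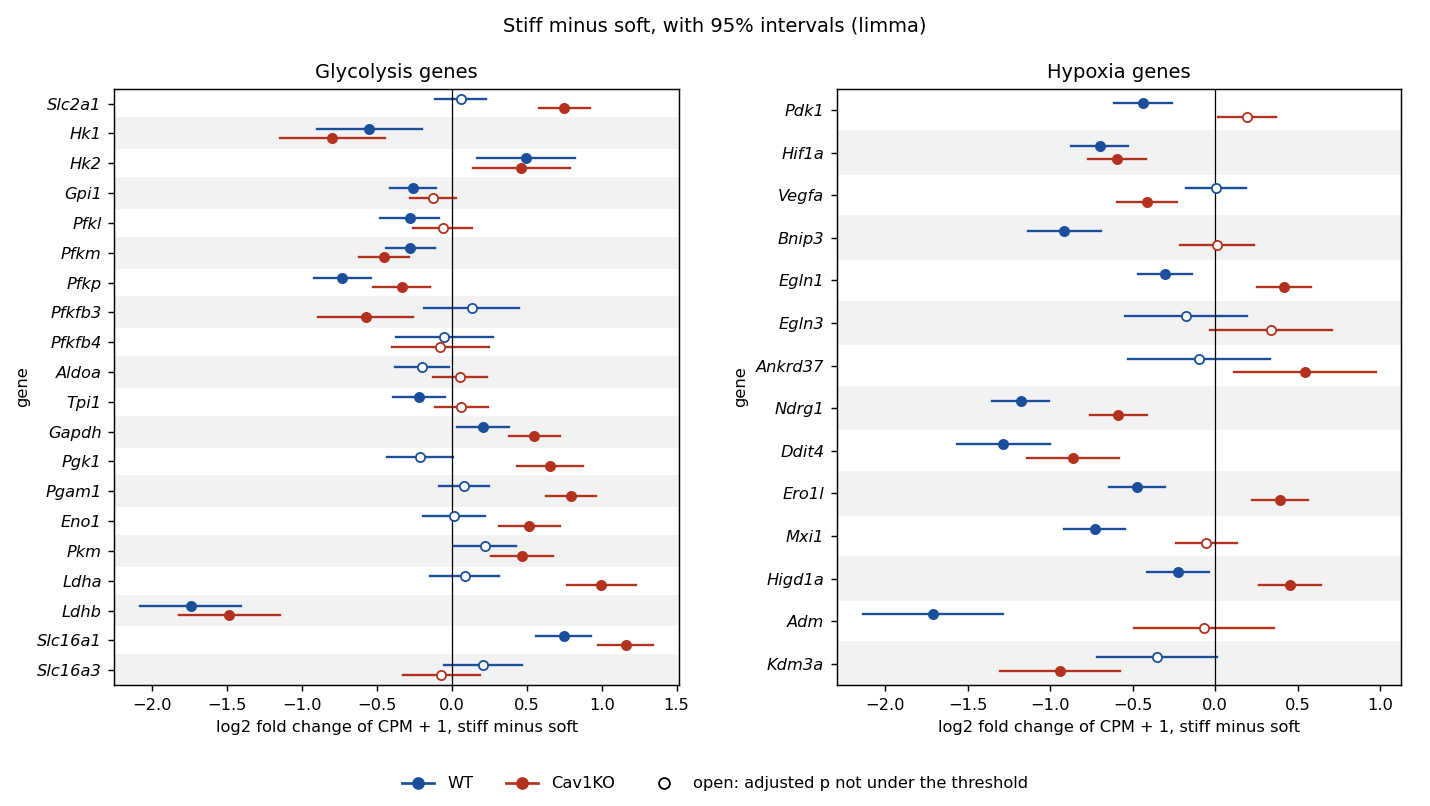
Log2 fold change of CPM + 1 between stiff and soft substrate for each gene, in blue for WT and red for Cav1KO cells, with 95% intervals from limma and filled points for adjusted p under 0.05. In Cav1KO cells the points from Gapdh to Ldha lie right of 0, and among the hypoxia genes none of the 10 filled WT points does.

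Between genotypes on stiff substrate, 15 of the 20 glycolysis genes were lower in Cav1KO cells and 3 higher (Pfkm, Pfkfb3 and Ldhb), where 26.6% of all genes were lower and 25% higher. Pfkp and Pkm were not called. On soft substrate, again 15 were lower and the same 3 higher, where 29.9% of all genes were lower and 24.1% higher, and Hk1 and Pkm were not called. The median log2 fold change was -0.55 on stiff and -0.95 on soft substrate, against -0.03 over all genes in both. The comparisons by genotype and by stiffness share libraries, so they are not separate evidence. All 18 calls on soft substrate held without each library in turn, and 15 of the 18 on stiff substrate did, the exceptions being Hk1, Pfkm and Pgk1.

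Hypoxia genes were mostly lower on stiff than on soft substrate in WT cells, and mostly lower in Cav1KO than in WT cells. In Cav1KO cells their stiffness effects went both ways. The summed level of the 14 genes was 1193 to 1251 CPM (WT) and 926 to 937 CPM (Cav1KO) on stiff substrate, and 1885 to 1941 CPM (WT) and 1116 to 1117 CPM (Cav1KO) on soft substrate. No 2 groups overlapped, and WT soft was the highest. The sum leans on Hif1a, which had the highest CPM of the 14 in every library. That gene encodes a HIF subunit, so the sum does not describe the targets alone.

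**Figure D4:**
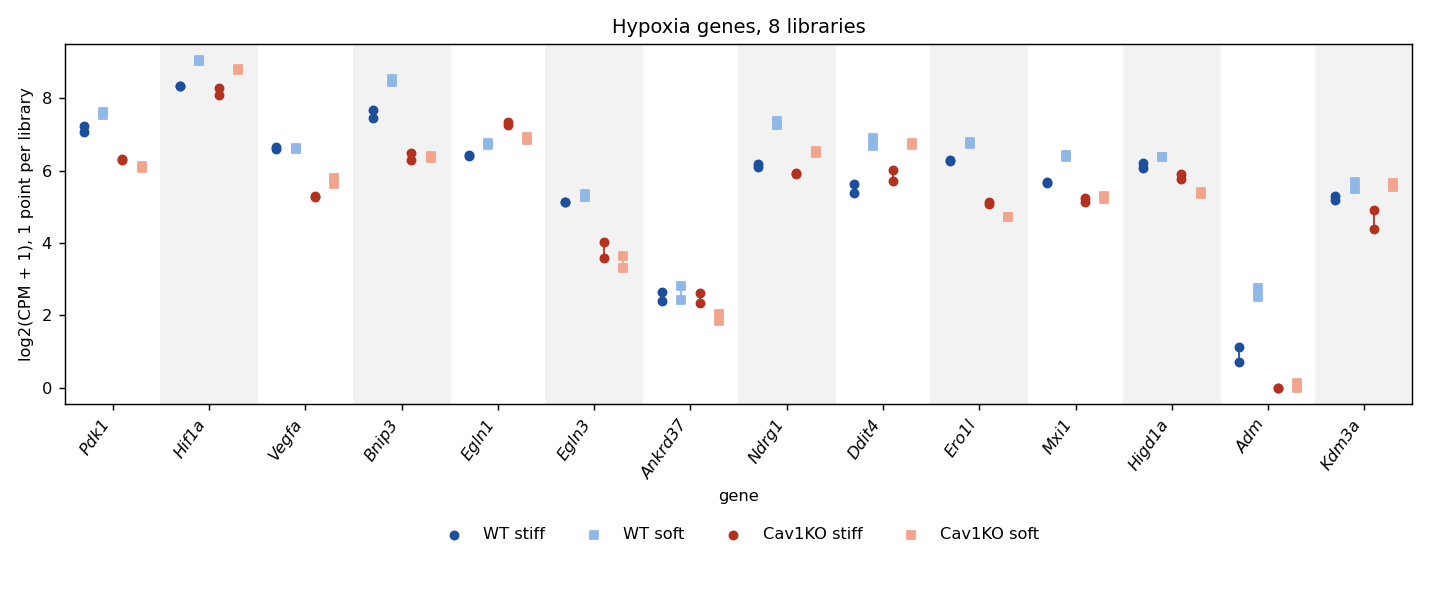
Level of each hypoxia gene in each library as log2(CPM + 1), with circles for stiff and squares for soft substrate, blue for WT and red for Cav1KO, and a line joining the 2 libraries of a group. The WT soft squares are the highest of all groups for Pdk1, Hif1a, Bnip3, Egln3, Ndrg1, Ero1l, Mxi1, Higd1a and Adm.

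The oxygen-sensing core comprised Hif1a, which encodes the regulated alpha subunit of HIF-1, and the hydroxylase genes Egln1 and Egln3. Hif1a was at 324 and 321 CPM on stiff and 524 and 526 CPM on soft substrate in WT cells, and was at 309.8 and 272 CPM on stiff and 443 and 436 CPM on soft substrate in Cav1KO cells. Hif1a was lower on stiff substrate in WT (-0.70 ± 0.08, adjusted p = 0.0002) and Cav1KO cells (-0.60 ± 0.08, adjusted p = 0.000279), and the effects did not differ past the test (-0.10 ± 0.11, adjusted p = 0.515, interval -0.35 to 0.14). Its genotype effect was small, with -0.15 ± 0.08, adjusted p = 0.127 on stiff and -0.26 ± 0.08, adjusted p = 0.0202 on soft substrate, and the call on soft was lost without WT soft replicate 1, WT soft replicate 2, Cav1KO soft replicate 1 or Cav1KO soft replicate 2 (log2 fold change -0.27 to -0.24), and the adjusted p ranged from 0.0079 to 0.206 over the 17 alternatives, 11 of which kept the call. Egln1 was at 84.1 and 85.7 CPM on stiff and 103 and 107 CPM on soft substrate in WT cells, and was at 152 and 161 CPM on stiff and 121 and 113 CPM on soft substrate in Cav1KO cells. Egln1, for the main HIF hydroxylase, was lower on stiff substrate in WT cells (-0.30 ± 0.07, adjusted p = 0.00824) and higher in Cav1KO cells (0.42 ± 0.07, adjusted p = 0.00129), and these opposite effects differed by -0.72 ± 0.10, adjusted p = 0.00842. It was higher in Cav1KO cells on stiff (0.87 ± 0.07, adjusted p = 2.01e-05) and was not called on soft substrate (0.15 ± 0.07, adjusted p = 0.107). Egln3 was at 33.8 and 34.03 CPM on stiff and 39.9 and 37.3 CPM on soft substrate in WT cells, and was at 11.1 and 15.3 CPM on stiff and 8.89 and 11.4 CPM on soft substrate in Cav1KO cells. Egln3, itself a HIF target, was lower in Cav1KO cells on stiff (-1.32 ± 0.16, adjusted p = 0.000224) and soft substrate (-1.84 ± 0.16, adjusted p = 2.94e-05) and passed the stiffness test in neither genotype (-0.18 ± 0.16, adjusted p = 0.393 in WT and 0.34 ± 0.16, adjusted p = 0.107 in Cav1KO).

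Ndrg1 and Ddit4, stress-responsive HIF targets of which Ddit4 (REDD1) restrains mTORC1, had the largest falls on stiff substrate in WT cells among the hypoxia genes other than Adm. Ndrg1 was at 68.00 and 71.2 CPM on stiff and 166 and 153 CPM on soft substrate in WT cells, and was at 59.02 and 60.2 CPM on stiff and 87.9 and 92.3 CPM on soft substrate in Cav1KO cells. Ddit4 was at 41.03 and 48.3 CPM on stiff and 118 and 102 CPM on soft substrate in WT cells, and was at 51.8 and 63.1 CPM on stiff and 107 and 103 CPM on soft substrate in Cav1KO cells. Both were lower on stiff substrate in WT (-1.18 ± 0.07, adjusted p = 3.84e-05 and -1.28 ± 0.12, adjusted p = 0.000114) and in Cav1KO cells (-0.59 ± 0.07, adjusted p = 0.000279 and -0.86 ± 0.12, adjusted p = 0.000479), with no overlap of libraries. The fall of Ndrg1 was larger in WT cells (difference -0.59 ± 0.11, adjusted p = 0.0198), and that of Ddit4 did not differ past the test (-0.42 ± 0.17, adjusted p = 0.125). Ndrg1 was lower in Cav1KO cells on soft substrate (-0.81 ± 0.07, adjusted p = 3.74e-05). Ddit4 had -0.07 ± 0.12, adjusted p = 0.674 there. On stiff substrate Ndrg1 was called lower (-0.22 ± 0.07, adjusted p = 0.0371) and Ddit4 higher in Cav1KO cells (0.36 ± 0.12, adjusted p = 0.0383). The former call was lost without WT stiff replicate 1, WT stiff replicate 2, Cav1KO stiff replicate 1, Cav1KO stiff replicate 2, Cav1KO soft replicate 1 or Cav1KO soft replicate 2 (log2 fold change -0.25 to -0.19), and the adjusted p ranged from 0.0366 to 0.147 over the 17 alternatives, 8 of which kept the call. The latter was lost without WT stiff replicate 1, Cav1KO stiff replicate 2, Cav1KO soft replicate 1 or Cav1KO soft replicate 2 (log2 fold change 0.22 to 0.36), and the adjusted p ranged from 0.0114 to 0.22 over the 17 alternatives, 12 of which kept the call.

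The next 5 genes were lower on stiff substrate in WT cells and were not called lower in Cav1KO cells, and for each the effects of the genotypes differed past the test. Bnip3, which marks mitochondria for autophagy, showed the largest difference of the 5. Bnip3 was at 174 and 205 CPM on stiff and 365 and 349 CPM on soft substrate in WT cells, and was at 77.3 and 88.5 CPM on stiff and 80.5 and 83.8 CPM on soft substrate in Cav1KO cells. The 2 Cav1KO groups overlapped, and in WT cells the stiff libraries were at about 0.53 of the soft level (-0.92 ± 0.10, adjusted p = 0.000184 in WT, 0.01 ± 0.10, adjusted p = 0.94 in Cav1KO, difference -0.93 ± 0.14, adjusted p = 0.0104). Pdk1 was at 134 and 148 CPM on stiff and 196 and 185 CPM on soft substrate in WT cells, and was at 78.2 and 76.8 CPM on stiff and 65.9 and 69.4 CPM on soft substrate in Cav1KO cells. Pdk1, whose kinase inhibits the pyruvate dehydrogenase of mitochondria, had effects of -0.44 ± 0.08, adjusted p = 0.00202 in WT and 0.19 ± 0.08, adjusted p = 0.0609 in Cav1KO cells (difference -0.63 ± 0.11, adjusted p = 0.0178). Ero1l was at 75.4 and 77.8 CPM on stiff and 109 and 105 CPM on soft substrate in WT cells, and was at 34.3 and 32.9 CPM on stiff and 25.5 and 25.3 CPM on soft substrate in Cav1KO cells. Ero1l, for an oxidase that forms disulfide bonds in the endoplasmic reticulum, fell in WT (-0.48 ± 0.07, adjusted p = 0.00107) and rose in Cav1KO cells (0.39 ± 0.07, adjusted p = 0.00219), and its difference of -0.87 ± 0.11, adjusted p = 0.00493 was the 1 difference among the members that held in all 17 alternatives.

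Mxi1 was at 49.2 and 49.9 CPM on stiff and 84.5 and 81.5 CPM on soft substrate in WT cells, and was at 37.2 and 34.2 CPM on stiff and 36.02 and 38.2 CPM on soft substrate in Cav1KO cells. Mxi1, a MAX partner that opposes MYC, had -0.73 ± 0.08, adjusted p = 0.00022 in WT and -0.05 ± 0.08, adjusted p = 0.601 in Cav1KO cells (difference -0.68 ± 0.12, adjusted p = 0.017). Higd1a was at 66.8 and 73.3 CPM on stiff and 81.99 and 81.9 CPM on soft substrate in WT cells, and was at 53.96 and 58.4 CPM on stiff and 40.05 and 41.4 CPM on soft substrate in Cav1KO cells. Higd1a, for a small mitochondrial protein, was called lower on stiff substrate in WT cells (-0.23 ± 0.08, adjusted p = 0.0482) and higher in Cav1KO cells (0.45 ± 0.08, adjusted p = 0.00167), with a difference of -0.68 ± 0.12, adjusted p = 0.017. The WT call of Higd1a was lost without WT stiff replicate 1, WT soft replicate 1, WT soft replicate 2, Cav1KO soft replicate 1 or Cav1KO soft replicate 2 (log2 fold change -0.23 to -0.16), and the adjusted p ranged from 0.0191 to 0.24 over the 17 alternatives, 9 of which kept the call. All 5 genes were lower in Cav1KO than in WT cells on stiff substrate, from -0.31 ± 0.08 for Higd1a to -1.18 ± 0.10 for Bnip3, and on soft substrate, from -0.99 ± 0.08 for Higd1a to -2.11 ± 0.10 for Bnip3, with adjusted p of 0.012 or less. The call of Higd1a on stiff substrate was lost without WT stiff replicate 2 or Cav1KO stiff replicate 1 (log2 fold change -0.26 to -0.25), and the adjusted p ranged from 0.0112 to 0.0766 over the 17 alternatives, 15 of which kept the call.

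The remaining hypoxia targets had patterns of their own. Vegfa was at 98.9 and 95.5 CPM on stiff and 97.6 and 96.6 CPM on soft substrate in WT cells, and was at 38.7 and 37.9 CPM on stiff and 48.5 and 54.3 CPM on soft substrate in Cav1KO cells. Vegfa, the growth factor for blood vessels, did not pass the stiffness test in WT cells (0.00 ± 0.08, adjusted p = 0.994, interval -0.18 to 0.18), was lower on stiff substrate in Cav1KO cells (-0.41 ± 0.08, adjusted p = 0.0024; difference not past the test, 0.41 ± 0.11, adjusted p = 0.0509), and was lower in Cav1KO cells on both stiff (-1.32 ± 0.08, adjusted p = 3.32e-06) and soft substrate (-0.91 ± 0.08, adjusted p = 2.80e-05). Kdm3a was at 38.3 and 35.6 CPM on stiff and 44.1 and 50.8 CPM on soft substrate in WT cells, and was at 29.3 and 20.1 CPM on stiff and 49.1 and 46.1 CPM on soft substrate in Cav1KO cells. The histone demethylase gene Kdm3a was lower on stiff substrate in Cav1KO cells (-0.94 ± 0.16, adjusted p = 0.00121), with -0.35 ± 0.16, adjusted p = 0.1 in WT cells and a difference of 0.59 ± 0.23, adjusted p = 0.107. It was also called lower in Cav1KO cells on stiff substrate (-0.58 ± 0.16, adjusted p = 0.0148), and this call was lost without WT stiff replicate 1 or Cav1KO stiff replicate 2 (log2 fold change -0.53 to -0.32), and the adjusted p ranged from 0.000661 to 0.0776 over the 17 alternatives, 15 of which kept the call. On soft substrate its genotype effect was 0.01 ± 0.16, adjusted p = 0.971.

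Ankrd37 and Adm were the 2 hypoxia genes with the fewest reads. Ankrd37 was at 4.27 and 5.24 CPM on stiff and 6.04 and 4.35 CPM on soft substrate in WT cells, and was at 4.12 and 5.21 CPM on stiff and 2.61 and 3.14 CPM on soft substrate in Cav1KO cells. Ankrd37 was called higher on stiff substrate in Cav1KO cells (0.54 ± 0.19, adjusted p = 0.0358), a call lost without Cav1KO stiff replicate 2, Cav1KO soft replicate 1 or Cav1KO soft replicate 2 (log2 fold change 0.40 to 0.64), and the adjusted p ranged from 0.00718 to 0.179 over the 17 alternatives, 13 of which kept the call. Its genotype call on soft substrate (-0.67 ± 0.19, adjusted p = 0.0159) was lost without WT soft replicate 1 or Cav1KO soft replicate 1 (log2 fold change -0.57 to -0.47), and the adjusted p ranged from 0.0134 to 0.108 over the 17 alternatives, 14 of which kept the call. Adm, which encodes the vessel-dilating peptide adrenomedullin, was at 1.21 and 0.627 CPM in WT stiff (24 and 11 reads) and 5.74 and 4.73 CPM in WT soft libraries (95 and 88 reads). Of the 4 Cav1KO libraries 3 held 0 reads and Cav1KO soft replicate 2 held 2. A count of 0 allows up to 3 reads. The observed WT mean was 5.37 times the level of 3 reads per Cav1KO library on stiff and 33.6 times on soft substrate. These ratios leave out the counting error of the WT reads, so they are not lower bounds. In WT cells it was lower on stiff substrate (-1.71 ± 0.19, adjusted p = 0.000196), and a stiffness effect in Cav1KO cells was not detectable at this depth.

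By comparison, 10 of the 14 hypoxia genes were lower on stiff substrate in WT cells and 0 higher, where 26.3% of all genes were lower and 22.1% higher. At an unadjusted p under 0.05 the count of higher genes in WT cells was also 0, and edgeR and DESeq2 called 0. In Cav1KO cells, 5 were lower (Hif1a, Vegfa, Ndrg1, Ddit4 and Kdm3a) and 4 higher (Egln1, Ankrd37, Ero1l and Higd1a), where 28.2% of all genes were lower and 27.9% higher. The median log2 fold change was -0.46 in WT and -0.02 in Cav1KO cells, against -0.02 over all genes in both. Of the 10 WT calls 9 held without each library in turn, the exception being Higd1a, and of the 9 Cav1KO calls 8 did, the exception being Ankrd37.

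The stiffness effects differed between genotypes for 8 of the 14 hypoxia genes, all with the lower effect in WT cells (Pdk1, Bnip3, Egln1, Ndrg1, Ero1l, Mxi1, Higd1a and Adm), where 6% of all genes had a lower and 4.47% a higher effect in WT cells. In the other direction limma called 0 (2 at an unadjusted p under 0.05), and edgeR and DESeq2 called 0. Of the alternatives, 14 of 17 kept the call of Bnip3, 16 of 17 that of Egln1, 13 of 17 that of Pdk1, 13 of 17 that of Ndrg1, 13 of 17 that of Mxi1, 12 of 17 that of Higd1a and 12 of 16 that of Adm. Adm counts among them although its Cav1KO values are at or under 3 reads. The number was 1 without Cav1KO soft replicate 2, 2 without Cav1KO soft replicate 1 or WT soft replicate 1, and 4 without WT stiff replicate 1, and apart from Adm under edgeR the sign of all 8 was kept in every alternative. Between genotypes, 10 were lower and 2 higher (Egln1 and Ddit4) in Cav1KO cells on stiff substrate, where 26.6% of all genes were lower and 25% higher. On soft substrate 11 were lower and 0 higher in limma (0 at an unadjusted p under 0.05), edgeR and DESeq2, where 29.9% were lower and 24.1% higher. The medians were -0.52 on stiff and -0.95 on soft substrate, against -0.03 over all genes. Of the 12 calls on stiff substrate 8 held without each library in turn, and of the 11 on soft substrate 9 did.

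**Figure D5:**
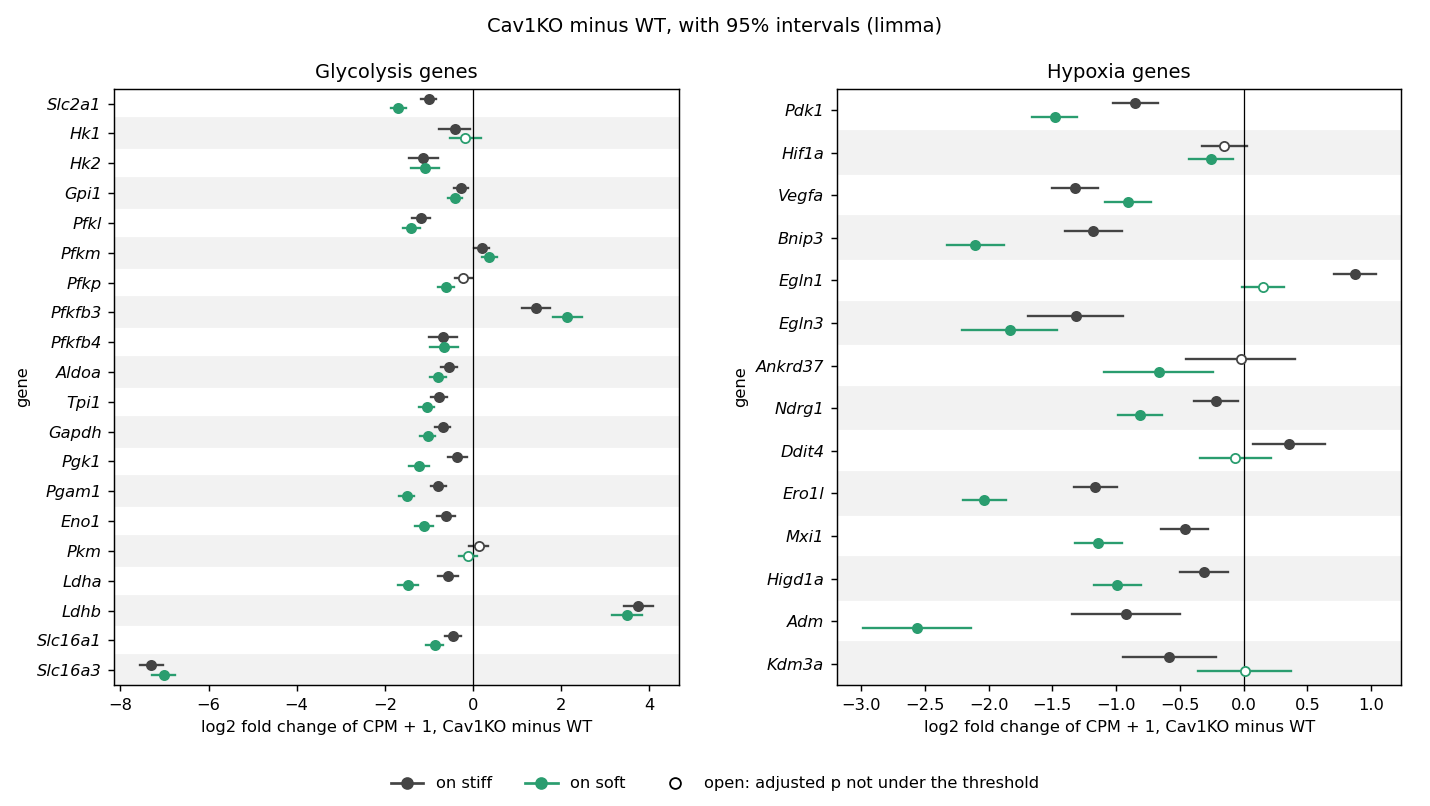
Log2 fold change of CPM + 1 between Cav1KO and WT cells for each gene, in grey on stiff and green on soft substrate, with 95% intervals from limma and filled points for adjusted p under 0.05. The soft points lie further left than the stiff points for most genes, and Slc16a3 (-7.30 on stiff) and Ldhb (3.75 on stiff) stand at the ends.

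The genes around the pathway were given by lists written with earlier results of these data known. Of 13 further glycolysis genes with a value, 2 were higher and 6 lower on stiff substrate in WT cells (all genes 22.1% and 26.3%), against 5 and 4 in Cav1KO cells (all genes 27.9% and 28.2%). The enolase gene Eno2 fell in both (-1.43 ± 0.18, adjusted p = 0.000348 and -1.48 ± 0.18, adjusted p = 0.000199), and the transporter gene Slc2a6 fell in WT cells (-1.77 ± 0.17, adjusted p = 0.000112) and was higher in Cav1KO than in WT cells on stiff substrate (2.53 ± 0.17, adjusted p = 5.54e-06). Eno3, for the muscle enolase, was lower in Cav1KO cells on stiff (-2.09 ± 0.13, adjusted p = 3.40e-06) and soft substrate (-1.83 ± 0.13, adjusted p = 6.94e-06). Bsg, whose product carries MCT1 and MCT4 to the membrane, was lower in Cav1KO cells on stiff (-0.29 ± 0.07, adjusted p = 0.0111) and soft substrate (-0.56 ± 0.07, adjusted p = 0.00032). In Cav1KO relative to WT cells, 5 of the 13 were higher and 4 lower on stiff substrate (all genes 25% and 26.6%). On soft substrate 3 were higher and 4 lower (all genes 24.1% and 29.9%). The median log2 fold change of the 13 was 0.24 on stiff and 0.05 on soft substrate, against -0.03 over all genes in both.

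A list of 14 genes covered the entry of pyruvate into mitochondria and its first conversion there. On stiff substrate in WT cells 1 was higher and 3 lower, shares at or under the 22.1% and 26.3% of all genes. In Cav1KO cells 6 were higher and 3 lower (all genes 27.9% and 28.2%). The 3 that were lower were the same in both genotypes: the kinase genes Pdk4 (-1.78 ± 0.15, adjusted p = 6.87e-05 in WT and -1.27 ± 0.15, adjusted p = 0.000164 in Cav1KO) and Pdk2 (-1.37 ± 0.16, adjusted p = 0.000283 and -1.31 ± 0.16, adjusted p = 0.000242), and the phosphatase gene Pdp1 (-1.06 ± 0.13, adjusted p = 0.000324 and -0.40 ± 0.13, adjusted p = 0.0276). Dlat, for a subunit of pyruvate dehydrogenase, was higher in both (0.40 ± 0.09, adjusted p = 0.00589 and 0.52 ± 0.09, adjusted p = 0.00118). Of 8 pentose phosphate genes, 4 were higher and 1 lower on stiff substrate in WT cells (all genes 22.1% and 26.3%), against 5 and 1 in Cav1KO cells (all genes 27.9% and 28.2%). Rpia led the higher ones in both (0.57 ± 0.13, adjusted p = 0.006 and 0.70 ± 0.13, adjusted p = 0.0017), and H6pd, whose enzyme works in the endoplasmic reticulum, was the lower one (-0.50 ± 0.09, adjusted p = 0.00192 and -0.53 ± 0.09, adjusted p = 0.00104). Tkt (transketolase) and Taldo1 (transaldolase) were higher in Cav1KO cells on stiff (0.66 ± 0.08, adjusted p = 0.000228 and 0.52 ± 0.06, adjusted p = 0.000196) and soft substrate (0.50 ± 0.08, adjusted p = 0.00105 and 0.43 ± 0.06, adjusted p = 0.000511). Of the 8, 4 were higher and 1 lower in Cav1KO cells on stiff (all genes 25% and 26.6%), and 2 were higher and 2 lower on soft substrate (all genes 24.1% and 29.9%).

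Of 13 components of the HIF pathway beyond the members, the alpha-subunit gene Epas1 (HIF-2 alpha) differed most. Epas1 was at 0.603 and 0.171 CPM on stiff and 0.242 and 0.484 CPM on soft substrate in WT cells, and was at 9.42 and 6.69 CPM on stiff and 36.2 and 36.4 CPM on soft substrate in Cav1KO cells. It was higher in Cav1KO cells on stiff (2.71 ± 0.21, adjusted p = 1.35e-05) and soft substrate (4.78 ± 0.21, adjusted p = 4.32e-07), and it was lower on stiff substrate in Cav1KO cells (-2.06 ± 0.21, adjusted p = 8.37e-05). The partner gene Arnt was lower in Cav1KO cells on stiff (-0.95 ± 0.09, adjusted p = 4.92e-05) and soft substrate (-0.67 ± 0.09, adjusted p = 0.000332), while its relative Arnt2 was higher (2.26 ± 0.17, adjusted p = 1.14e-05 and 2.40 ± 0.17, adjusted p = 7.87e-06). Cited2, a HIF-inducible antagonist of HIF, fell on stiff substrate in WT (-0.44 ± 0.07, adjusted p = 0.0011) and rose in Cav1KO cells (0.54 ± 0.07, adjusted p = 0.000267), a difference of -0.98 ± 0.10, adjusted p = 0.00254. In all, 1 of the 13 was higher and 4 lower on stiff substrate in WT cells (all genes 22.1% and 26.3%), against 5 and 5 in Cav1KO cells (all genes 27.9% and 28.2%). In Cav1KO relative to WT cells 4 were higher and 3 lower on stiff (all genes 25% and 26.6%), and 5 and 5 on soft substrate (all genes 24.1% and 29.9%).

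A longer list of 39 other hypoxia targets with values was described in the same way. On stiff substrate 4 were higher and 23 lower in WT cells (all genes 22.1% and 26.3%), and 9 higher and 16 lower in Cav1KO cells (all genes 27.9% and 28.2%), with medians of -0.42 and -0.07 against -0.02 over all genes. The difference between the effects was called for 1 in the higher and 8 in the lower direction (all genes 4.47% and 6%). The largest falls in WT cells were those of Ppp1r3c (-2.24 ± 0.14, adjusted p = 3.67e-05), Nos2 (-1.70 ± 0.09, adjusted p = 2.56e-05) and Rora (-1.66 ± 0.15, adjusted p = 9.73e-05), and the transferrin receptor gene Tfrc rose (1.23 ± 0.08, adjusted p = 3.91e-05). In Cav1KO relative to WT cells, 24 were lower and 7 higher on stiff (all genes 26.6% and 25%), and 30 lower and 5 higher on soft substrate (all genes 29.9% and 24.1%). Tmem45a (-6.11 ± 0.16, adjusted p = 3.25e-08 on soft), Loxl2 (-5.02 ± 0.14, adjusted p = 4.20e-08) and Fam162a (-2.35 ± 0.09, adjusted p = 2.45e-07) were the most reduced of those with a mean of at least 5 CPM, and Stc1 (4.23 ± 0.16, adjusted p = 1.64e-07) was the most increased.

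Among 4 glucose-sensing genes with values, Txnip, a thioredoxin-binding protein gene that restrains glucose uptake, was lower on stiff substrate in WT (-1.54 ± 0.12, adjusted p = 6.08e-05) and Cav1KO cells (-1.65 ± 0.12, adjusted p = 2.29e-05) and lower in Cav1KO cells on stiff (-3.60 ± 0.12, adjusted p = 1.03e-07) and soft substrate (-3.49 ± 0.12, adjusted p = 1.23e-07). Its relative Arrdc4 was higher in Cav1KO cells (1.76 ± 0.13, adjusted p = 1.05e-05 on stiff and 2.18 ± 0.13, adjusted p = 2.81e-06 on soft). Of the 4, 0 were higher and 1 lower on stiff substrate in WT cells (all genes 22.1% and 26.3%). In Cav1KO cells 0 were higher and 2 lower (all genes 27.9% and 28.2%). In Cav1KO relative to WT cells 1 was higher and 1 lower on stiff (all genes 25% and 26.6%) and on soft substrate (all genes 24.1% and 29.9%). Of 7 genes of the MYC and MAX network, Myc was higher on stiff substrate in WT (0.41 ± 0.10, adjusted p = 0.00792) and Cav1KO cells (0.52 ± 0.10, adjusted p = 0.00192) and lower in Cav1KO cells (-0.60 ± 0.10, adjusted p = 0.000942 on stiff and -0.71 ± 0.10, adjusted p = 0.000331 on soft). The repressor gene Mxd4 fell on stiff substrate in both (-1.73 ± 0.09, adjusted p = 2.56e-05 and -2.09 ± 0.09, adjusted p = 6.88e-06). Of the 7, 1 was higher and 3 lower on stiff substrate in WT cells (all genes 22.1% and 26.3%). In Cav1KO cells 2 were higher and 4 lower (all genes 27.9% and 28.2%). In Cav1KO relative to WT cells 0 were higher and 3 lower on stiff (all genes 25% and 26.6%). On soft substrate 1 was higher and 2 lower (all genes 24.1% and 29.9%).

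Some members share sequence with other genes, and their values are uncertain where reads of 60 nt could be split between copies. Each transcript was cut into overlapping stretches of 60 nt, and the share of stretches found in a second annotated gene was 81.6% for Gapdh, 69.5% for Eno1, 67.8% for Pgk1, 55.6% for Bnip3, 41.1% for Pgam1, 35.4% for Higd1a, 27.98% for Pkm, 21.7% for Ldhb and 20.3% for Gpi1. It was 10.7% for Ldha, 1.44% for Slc2a1 and 0% for Slc16a1 and Slc16a3. The Pgk1 copy Pgk1-rs7 ranged from 1.8 to 300.3 CPM and differed between libraries of one group. The sum of Pgk1 with its copies Pgk1-rs7 and Gm5537 was 2091 and 2392 CPM (WT) and 1682 and 1782 CPM (Cav1KO) on stiff substrate, and 2649 and 2584 CPM (WT) and 1019.7 and 1089 CPM (Cav1KO) on soft substrate, in the same order of groups as Pgk1 alone. Gm5514, the copy of Ldhb, reached 26.04 CPM at most. Pfkp also overlaps the gene Pitrm1 in the annotation, and without strand their reads in the overlap cannot be told apart.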

How the data were processed

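Poly(A) RNA of 8 libraries was prepared without strand information and sequenced as single reads of 60 bases. The submitters' processing notes name CASAVA 1.8.2, cutadapt, RSEM 1.2.3 and the GRCm38 build. The authors deposited normalized signal values, which are CPM scaled by TMM: the values of each library were whole multiples of the worth of 1 read (tolerance 0.02 of a step), so the reads were recovered, 17089836 to 19944952 per library. No column held values of another sample. Of 12528 gene identifiers, 12460 were matched to GENCODE M21.

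A gene was kept where 2 or more libraries reached 1 CPM, which left 12494 for limma 3.58.1 (R 4.3.3), run on log2(CPM + 1) with a mean-variance trend. The 4 groups entered a single fit with 4 residual degrees of freedom, p-values were two-sided and adjusted by Benjamini-Hochberg, and the threshold was 0.05. The contrasts were stiff against soft in each genotype, their difference, and Cav1KO against WT on each substrate. Shares of isozymes were taken from CPM per kb of principal transcript, and again with the length of all annotated exons. The 17 alternatives were pseudocounts of 0.5 and 5, no filter, no trend, median centring, quantile normalization, edgeR 4.0.16 and DESeq2 1.42.0 on the recovered reads, a replicate block, and leaving out each library. The pipeline was tested on simulated data. Because the values carry counting error at this depth and 2 libraries per group, small differences of low genes are the least certain.

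The members, lists and tests were chosen with earlier results of these data known. All members are accounted for in the order of the steps and by role. From each further list, up to 3 called genes per direction and contrast with a mean of at least 5 CPM and the largest change could be named, with Cav1 as the check of the genotype labels. Sequences were read from RefSeq promoters of GRCm38.p6.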

Additional observations from a re-analysis of the deposited data

Results flagged for a closer look

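For 13 of the 34 genes the stiffness effect, stiff minus soft, differed between WT and Cav1KO cells by limma's test of the difference itself. The effect was lower in WT cells in each of the 13, where 6% of all genes had a lower and 4.47% a higher effect in WT cells. The 13 differences repeat the tests of the report and share its libraries. Among the glycolysis genes the difference, WT minus Cav1KO on the log2 scale, was -0.69 ± 0.11 for Slc2a1, -0.87 ± 0.14 for Pgk1, -0.71 ± 0.10 for Pgam1, -0.50 ± 0.13 for Eno1 and -0.91 ± 0.14 for Ldha. Among the hypoxia genes it was -0.63 ± 0.11 for Pdk1, -0.93 ± 0.14 for Bnip3, -0.72 ± 0.10 for Egln1, -0.59 ± 0.11 for Ndrg1, -0.87 ± 0.11 for Ero1l, -0.68 ± 0.12 for Mxi1, -0.68 ± 0.12 for Higd1a and -1.64 ± 0.26 for Adm. The adjusted p ran from 0.00493 to 0.044. Of the 13 calls, only that of Ero1l held without each of the 8 libraries in turn. The value of Adm depends on the pseudocount, because its Cav1KO libraries held 0 to 2 reads.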

How the results depend on the processing

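Over the 17 alternatives, 2889 values of the members were recomputed. Of these, 2692 kept their direction and their side of the threshold, counting 35 values below the threshold that changed sign by less than 1 SE, while 151 lost a call and 26 gained one. A further 20 changed sign by more than 1 SE, and 1 of these, the difference of Adm, was a called value: edgeR gave 0.61 (adjusted p = 0.646) for it. The cause of the changes was not tested.

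Median centring turned the Cav1KO stiffness effects of Pfkl to 0.0252 and Mxi1 to 0.0325. Quantile normalization turned the WT stiffness effects of Slc2a1 to -0.0549, Pfkfb4 to 0.14 and Ankrd37 to 0.13, and the Cav1KO stiffness effects of Pfkfb4 to 0.24, Aldoa to -0.0758, Tpi1 to -0.13, Slc16a3 to 0.21 and Bnip3 to -0.11. It also turned the differences between the stiffness effects of Pkm to 0.0638, Slc16a3 to -0.0844 and Hif1a to 0.0725, and the genotype effect of Pkm on soft substrate to 0.0638. Leaving out each library gave ranges that crossed 0 for the Cav1KO stiffness effects of Pfkl (-0.185 to 0.0615) and Slc16a3 (-0.199 to 0.0596), for the WT stiffness effects of Pfkfb3 (-0.0353 to 0.299) and Ankrd37 (-0.296 to 0.0998), and for the difference of Ldhb (-0.526 to 0.0106).

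Counts of called members changed as follows. For the difference between the stiffness effects, 1 glycolysis gene was higher with a pseudocount of 5, with quantile normalization and with DESeq2, and 1 hypoxia gene was higher with a pseudocount of 5. Without a trend, 1 hypoxia gene was higher in Cav1KO cells on stiff substrate, and with quantile normalization 1 was higher on soft substrate. Leaving out each library gave 1 to 3 glycolysis genes higher and 3 to 7 lower on stiff substrate in WT cells. It gave 0 to 1 glycolysis genes with a higher and 0 to 6 with a lower difference, and 0 to 2 hypoxia genes with a higher and 1 to 10 with a lower difference. It gave 1 to 2 hypoxia genes higher in Cav1KO cells on stiff substrate.

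Over all genes, 559 had a higher and 750 a lower difference between the stiffness effects, against 314 and 391 without a trend, 361 and 541 with edgeR, and 36 to 1747 higher and 74 to 1689 lower when each library was left out. In WT cells 2763 genes were higher on stiff substrate, against 1707 without WT soft replicate 1. The correlations of same-numbered deviations ran from -0.367 (WT stiff with WT soft) to 0.415 (WT stiff with Cav1KO stiff) over 6 pairs of groups. Their signs were mixed, so the replicate numbers of the labels did not mark 1 common pairing of all groups. Whether libraries of some groups were paired was not tested. With a replicate block, 6 glycolysis and 8 hypoxia genes had a lower difference, and 569 and 755 of all genes a higher and a lower one.

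Of 44 isozyme shares recomputed with the length of all annotated exons, 39 moved by more than 1 SD. Depth limits Adm and Ankrd37 most.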

Other observations

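Gapdh is often taken as a reference gene. Its group means were 813 CPM (WT) and 505 CPM (Cav1KO) on stiff substrate, and 704 CPM (WT) and 344 CPM (Cav1KO) on soft substrate, and it was lower in Cav1KO cells on stiff (-0.69 ± 0.08, adjusted p = 0.000115) and soft substrate (-1.03 ± 0.08, adjusted p = 1.02e-05), with the copies of its sequence in the genome as a limit of the value.

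The genes for the entry of pyruvate into mitochondria and its first conversion there were compared between genotypes. In Cav1KO relative to WT cells, 6 of 14 were higher and 1 lower on stiff (all genes 25% and 26.6%). On soft substrate 2 were higher and 3 lower, both shares under the 24.1% and 29.9% of all genes. Pcx, for pyruvate carboxylase, was higher in Cav1KO cells on stiff (0.51 ± 0.15, adjusted p = 0.0209) and soft substrate (0.68 ± 0.15, adjusted p = 0.00503). Pdk3, a kinase gene of the same family as Pdk1, was lower on both (-0.44 ± 0.08, adjusted p = 0.00234 and -0.91 ± 0.08, adjusted p = 3.65e-05).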
